A study of Rattus norvegicus with 47 samples.

Results

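Voltage-gated ion channels, their inward-rectifier, two-pore and TRP relatives and the chloride channels of the Clcn family were followed in rat testis after methoxyacetic acid (MAA). The members are all probes with 1 gene symbol that starts with Kcn, Cacn, Scn and a digit, Clcn, or Trp followed by C, M or V. This gave 114 genes of 9645, and 123 probes of the 20500 with values on every array. The choice used gene names, not measured values. Of the genes, 8 have several probes, and 2 of the probes are for Trpc4ap, which shares the prefix but encodes a protein that is no channel.

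Voltage-gated potassium, calcium and sodium channels open when the membrane depolarises, whereas inward rectifiers and two-pore potassium channels set the resting potential. A channel is built from pore subunits, which conduct the ion, and auxiliary subunits, which tune gating and transport to the membrane. In the testis, potassium and calcium currents are known from Leydig cells, Sertoli cells and germ cells. The calcium entry and the potassium currents that sperm need for fertilisation pass through specialised channels of the sperm tail.

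RNA came from whole testis parenchyma of 47 male Sprague-Dawley rats aged 90 days. Treated animals received 650 mg/kg MAA in the peritoneal cavity and controls saline, and groups of both kinds were killed 4, 8, 12 and 24 h later. MAA forms in the body from a glycol ether solvent and is known for killing spermatocytes. Each of the 8 groups held 6 animals, except the saline group at 4 h with 5, and each animal was measured on 1 two-colour array against universal rat reference RNA. All levels below are M, the log2 ratio of testis over reference on an array, so a difference of 1 is a doubling. A mean M of 0 marks the typical probe of the array. The channel headed Cy3 was taken as testis, although the labels name Cy5 for it. If the labels were right about the dyes, each signed value here would have the opposite sign. With raw log ratios centred on each array's median, the median of 8 spermatocyte probes was 0.65 and positive on each of the 47 arrays. For 14 probes of genes typical of other organs it was -1.46, and positive on 0 of 47. No array has the dyes swapped, so dye effects remain in comparisons with the reference.

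Arrays differed in brightness. Between 43.5% and 97.2% of an array's probes stood above background, and 3 arrays of 1 hybridisation date, those of 2 treated and 1 saline animal at 4 h, exceeded 80%. One treated array of 12 h, animal 27, holds a reference channel that is a copy of that of treated animal 15 of 8 h. Results were recomputed without each of these arrays. In whole tissue, fewer cells of a type and less RNA per cell cannot be told apart.

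Many channel transcripts were near the background of the array. Of the 123 channel probes, 57 (46.3%) stood above background in the testis channel on at least 24 of 47 arrays, where 60.5% of all probes did. On all 47 arrays 18 channel probes did (14.6%, against 28.1% of all probes), and 38 were above background on 7 arrays or fewer (30.9%, against 17.6%). The calcium- or sodium-activated potassium channels were the dimmest class by this count, with 0 of 6 probes above background on at least 24 arrays. They include Kcnma1, the large-conductance calcium-activated channel, above background on 3 of 47 arrays. Of the 30 probes for voltage-gated potassium pore subunits 15 passed that mark, of 14 for inward rectifiers 4, of 9 for two-pore channels 4 and of 12 for potassium channel auxiliary subunits 6. Among calcium channels 3 of 6 pore and 8 of 13 auxiliary probes did, and among sodium channels 4 of 10 pore and 2 of 6 beta probes. The Clcn family had 4 of 6 and the TRP channels 6 of 9. Kcnd1, a subunit of fast-inactivating potassium channels, was above background on 0 of 47 arrays.

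The first comparison set the 23 saline testes against the reference RNA. The median M of the channel probes was 0.07, where that of all probes was 0.04. Of the 123 channel probes 91 lay within 1.2-fold of the reference, and the share of all probes that did was not counted. For probes near background in both channels, a ratio close to the reference does not show equal transcript levels. With limma, 0 channel probes were at least 2-fold higher in testis at an adjusted p under 0.05, where 3.06% of all probes were. By the same rule 8 channel probes were lower (6.5%), where 7.93% of all probes were. With a normexp background correction these were 14 (11.4%) against 12.4% of all probes. The largest ratios on both sides belong to potassium channels and to auxiliary subunits of calcium and sodium channels.

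**Figure D1:**
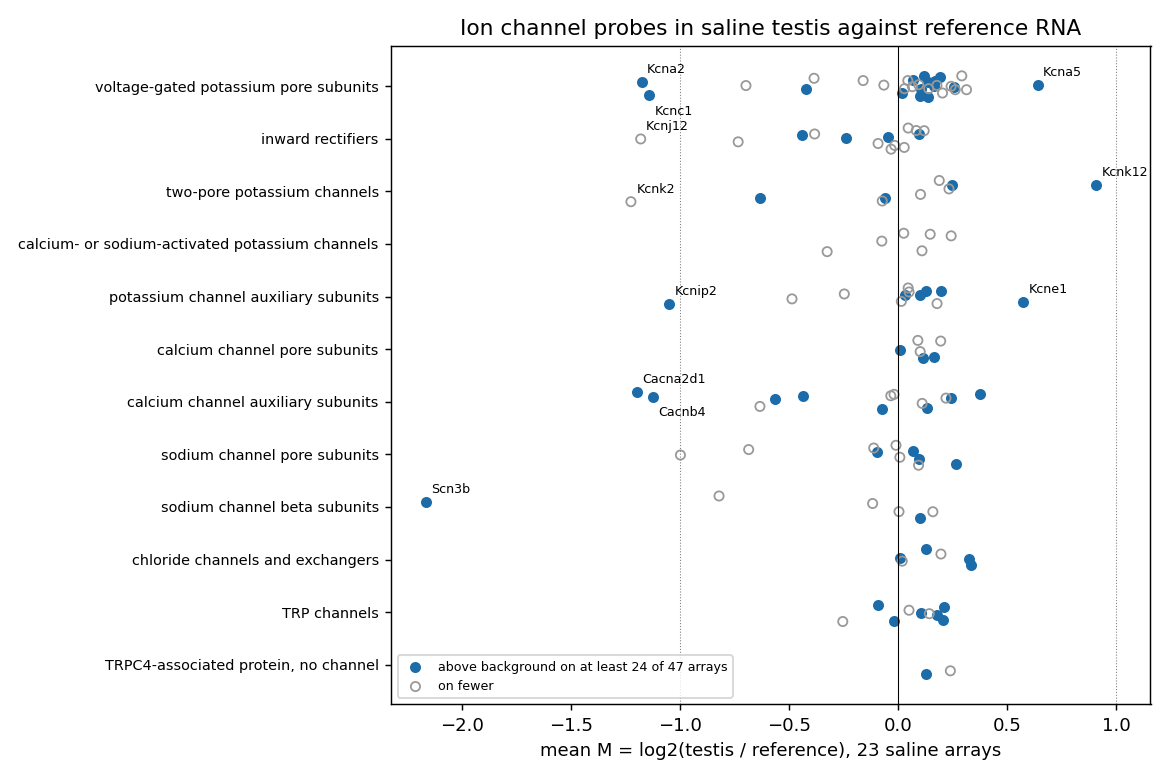
Mean M of each of the 123 channel probes over 23 saline arrays (horizontal axis, log2 of testis over reference), by class (vertical axis); filled points are probes above background on at least 24 of 47 arrays, open points the others, and dotted lines mark a 2-fold ratio. Most probes crowd around 0, the 8 called lower lie to the left of -1 with Scn3b farthest at -2.17, and Kcnk12 at 0.91 is farthest to the right.

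Kcnk12, a two-pore potassium channel, had the highest ratio of the members. Over the 23 saline animals M ran from 0.58 to 1.36 with a median of 0.97, and the mean was 0.91 ± 0.20 (SD, n = 23), 1.88-fold over the reference (limma adjusted p 1.6e-17). Kcna5, the pore subunit of a delayed rectifier, ran from 0.29 to 0.91 with a median of 0.65 and a mean of 0.64 ± 0.14 (SD, n = 23), or 1.56-fold. Every saline animal was above the reference for both genes. Kcne1, a single-span subunit that slows the Kcnq1 channel, stood at 0.57 ± 0.17 (SD, n = 23), with 0.25 as the lowest animal. Centred on the median in place of loess these means were 0.68, 0.53 and 0.34, all still above 0. Next in order came Cacng2, an auxiliary subunit that also escorts glutamate receptors (0.37 ± 0.41), Clcn7, the chloride and proton exchanger of lysosomes (0.33 ± 0.26), and the potassium channel Kcnh4 (0.31 ± 0.35). Their SDs are as large as or close to their means, and Cacng2 and Kcnh4 were above background on 14 and 12 of 23 saline arrays. Scn8a, a sodium channel pore, followed at 0.27 ± 0.23 with its second probe at 0.01, and Kcnh6, a relative of the cardiac erg channel, at 0.26 ± 0.17, which was 0.03 with median centring.

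Among the 8 lower probes, Scn3b, a sodium channel beta subunit, had the lowest ratio. Its probe 9543 ran from -2.82 to -1.56 with a median of -2.12, a mean of -2.17 ± 0.36 (SD, n = 23) and a 4.49-fold lower level than in the reference (limma adjusted p 7.4e-22). Probe 9543 was not above background on every saline array, so this fold rests in part on the background level. The other Scn3b probe, 20526, stood at 0.16 ± 0.23, so the probes disagree, and the gene's level rests on which is read. Kcnk2, a mechanically gated two-pore channel, was at -1.23 ± 0.36 but above background on only 3 of 23 saline arrays. Against the background level it was at least 1.78-fold lower, and Kcnj12, an inward rectifier above background on 10 of 23, at least 1.93-fold lower. Cacna2d1, the alpha-2-delta subunit that binds gabapentin, was at -1.20 ± 0.22 (2.30-fold lower), and Cacnb4, a cytoplasmic calcium channel beta subunit, at -1.12 ± 0.27. Kcna2 (-1.18 ± 0.41) and Kcnc1 (-1.14 ± 0.27) are pore subunits of fast potassium channels of axons and interneurons. Kcnip2, a calcium-binding partner of Kcnd channels, was at -1.05 ± 0.24. Of the 8 lower probes only those of Kcnc1 and Kcnip2 were above background on all 23 saline arrays. Cacna2d1 was on 22, Cacnb4 on 20 and Kcna2 on 15. Scn2a, a sodium channel pore of the brain, was above background on only 3 of 23 saline arrays and fell short of the 2-fold mark. Kcna2, Kcnc1, Cacnb4 and Scn2a are best known from neurons, and Kcnip2 and Kcnj12 from heart muscle. These were taken from the low end, and Scn2a was not called. Cacng2, which also escorts glutamate receptors, was among the highest at 0.37, and the highest sodium channel pore, Scn8a, was at 0.27. The members were not sorted by tissue, so these genes show no trend of neuronal or heart channels as a group. The 8 nerve and glia marker probes had a median M between -1.40 and -0.42 on the saline arrays, and 3 of them were called lower and 0 higher. The labels do not state the tissues of the reference, and any part of nerve RNA in these ratios was not tested.

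Kcna5 and Kcna2 belong to the same subfamily of potassium channels and stood at opposite ends of the order. The sequences around their starts are shown to set a gene high against the reference beside a relative low against it. Each runs from 250 bases before the start to 50 after it in RefSeq on build GRCr8, 5′ to 3′ on the gene's strand, with CG dinucleotides in capitals. Kcna5 lies at chr4:161043760-161044059 on the minus strand, and Kcna2 at chr2:197393280-197393579 on the plus strand.
Kcna5: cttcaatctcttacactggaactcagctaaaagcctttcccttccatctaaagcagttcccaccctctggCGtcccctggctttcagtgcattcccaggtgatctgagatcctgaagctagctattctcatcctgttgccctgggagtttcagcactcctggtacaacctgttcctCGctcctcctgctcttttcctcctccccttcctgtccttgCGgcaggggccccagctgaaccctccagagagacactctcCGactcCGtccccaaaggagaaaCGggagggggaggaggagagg
Kcna2: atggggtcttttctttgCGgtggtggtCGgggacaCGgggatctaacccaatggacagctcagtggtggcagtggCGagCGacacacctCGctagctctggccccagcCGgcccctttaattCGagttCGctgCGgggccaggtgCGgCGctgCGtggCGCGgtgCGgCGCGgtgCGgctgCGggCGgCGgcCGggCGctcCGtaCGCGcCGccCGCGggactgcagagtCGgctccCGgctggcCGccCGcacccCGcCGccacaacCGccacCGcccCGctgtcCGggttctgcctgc
The Kcna5 stretch holds 6 CG dinucleotides and the Kcna2 stretch 40. Of the 33469 stretches of 300 bases in the table, 43.7% hold fewer than the former and 96.8% fewer than the latter. Of the 114 channel genes 83 have an entry there, and the median is 14.5 CG per stretch for these and 7 for all. The counts describe sequence only, and methylation was not measured.

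Several channels with a known part in testis or sperm were near the reference. Of the 19 that were listed, 14 have a probe. Clcn2, a chloride channel whose loss costs mice their germ cells, stood at 0.02 ± 0.36 and was above background on only 3 of 23 saline arrays. Clcn3 (0.01 ± 0.34), an endosomal exchanger, Cacna1g (0.01 ± 0.28), a low-voltage-activated calcium channel, and Scn10a (0.10 ± 0.20), a sodium channel, were measured on most arrays and lay close to 0. Trpv6, a calcium channel needed for fertility in male mice, was at 0.18 ± 0.29 and above background on 23 of 23. Kcnq1, the partner of Kcne1, was at 0.12 ± 0.15. With median centring Scn10a and Kcnq1 turned to -0.14 and -0.12, so neither has a settled side. Kcnj11, the pore of the ATP-sensitive potassium channel, was at -0.09 ± 0.24, above background on 4 of 23. Cacnb3 lay below the reference, with its 2 probes at -0.44 and -0.63. The former was above background on 23 of 23 saline arrays and the latter on 2 of 23. Set against the background level, the latter was at least 1.15-fold lower.

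The second comparison asked which channel transcripts differ between MAA and saline at each time. With limma over all 20500 probes and hybridisation date as a term, 0 of 123 channel probes passed an adjusted p of 0.05 at 4 h, where 0.0195% of all probes did. At 8 h the count was 0 against 0.00976%, at 12 h 0 against 2.54% (1.69% higher and 0.844% lower) and at 24 h 0 against 2.99% (2.25% higher and 0.737% lower). At an unadjusted p under 0.05 there were 5, 6, 5 and 7 channel probes at 4, 8, 12 and 24 h (4.07%, 4.88%, 4.07% and 5.69%), where 7.4%, 7.11%, 14.7% and 14.3% of all probes were. The channel share was the smaller one at each time, and the difference in shares was not tested. The fitted log2 changes of the channels had medians of -0.04, -0.01, 0.02 and -0.00, against 0.01, 0.01, 0.04 and 0.02 for all probes. They ran from -0.64 to 0.59 at 4 h, -0.46 to 0.53 at 8 h, -0.55 to 0.45 at 12 h and -0.42 to 0.43 at 24 h, with a median standard error between 0.183 and 0.196. The 95% interval of the change lay inside 2-fold either way for 122 of 123 probes at 4 h and for 123 at each later time. It lay inside 1.5-fold for 85, 79, 75 and 86 probes (69.1%, 64.2%, 61% and 69.9%, against 68.8%, 71.6%, 59.1% and 67.7% of all probes), and for the others a 1.5-fold change lay within the error. For the dim probes, a change of the transcript can also be hidden by background.

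Averaging the change over the 4 times uses all 47 arrays in 1 fit. With date as a term, MAA and saline are compared mainly within the 8 dates that hold both kinds. The 2 dates with treated arrays only and the 2 with saline arrays only give no direct comparison. In this mean effect 1 channel probe passed, Kcnj3 (0.813%), where 4.02% of all probes passed, 2.96% higher and 1.06% lower. The mean effects of the 123 probes had a median of -0.00, and 117 of their 95% intervals included 0. By class of channel, the medians of the mean effect ran from -0.05 for sodium channel pores to 0.08 for the two-pore channels.

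**Figure D2:**
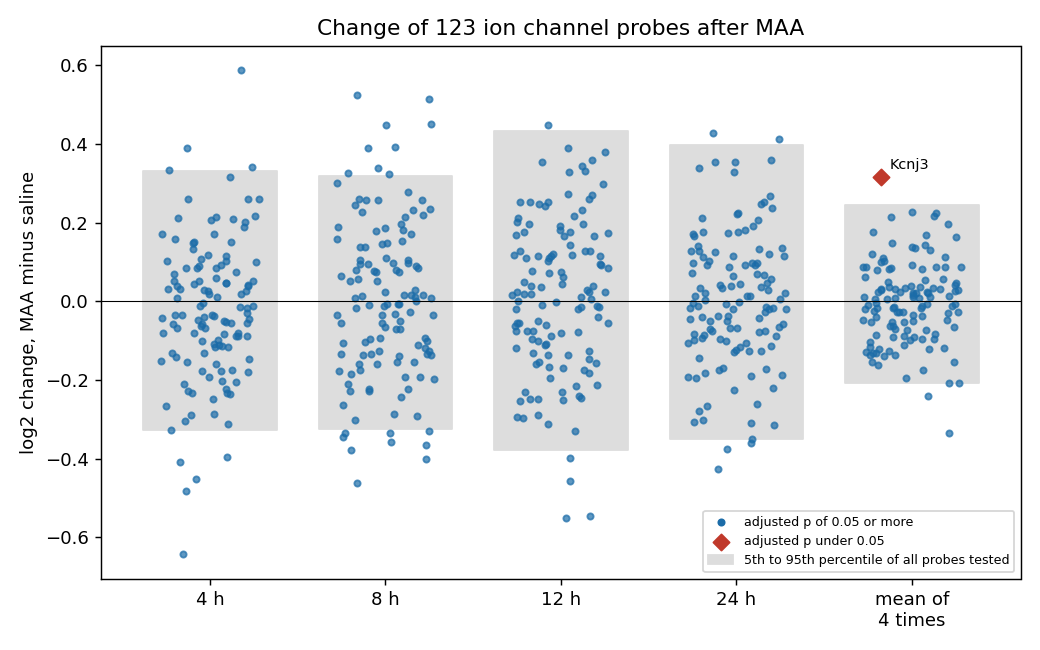
Fitted log2 change of the 123 channel probes (vertical axis, MAA minus saline) at 4, 8, 12 and 24 h and in the mean of the 4 times (horizontal axis); each point is a probe, the diamond is the probe with an adjusted p under 0.05, and grey bands span the 5th to 95th percentile of all 20500 probes. The points centre on 0 at each time and Kcnj3, at 0.32 in the mean effect, is the 1 diamond.

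Kcnj3 (Gene ID 50599) encodes a subunit of the inward rectifier that opens when G-protein-coupled receptors release their beta-gamma subunits. It was above background on 47 of 47 arrays. At 4 h the saline animals lay at -0.47, -0.29 and -0.16 (lowest, median and highest M) and the treated ones at -0.41, -0.14 and 0.48. At 8 h they lay at -0.51, -0.26 and 0.48 in saline and -0.37, -0.01 and 0.06 in MAA. Treated medians were higher at both times, yet the groups overlapped, and the highest value at 8 h was a saline animal. At 12 h the saline animals lay at -0.39, -0.17 and 0.06 and the treated ones at -0.19, -0.02 and 0.18. At 24 h they lay at -0.63, -0.30 and -0.17 in saline and -0.48, 0.07 and 0.36 in MAA. Here too the groups overlapped, and at 24 h 4 of the 6 treated animals lay above every saline animal.

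The fitted changes of Kcnj3 were 0.39 ± 0.13, 0.20 ± 0.12, 0.27 ± 0.13 and 0.41 ± 0.12 (SE) at 4, 8, 12 and 24 h, with limma adjusted p of 0.454, 0.782, 0.325 and 0.0529, none of which passed. Their mean was 0.32 ± 0.071 (SE, 24 treated and 23 saline animals), 1.25-fold higher, with a 95% interval from 0.17 to 0.46 and an adjusted p of 0.0059. On 8 hybridisation dates animals of both kinds were measured, and the treated mean was above the saline mean on 8 of 8. These differences were 0.15 and 0.50 at 4 h, 0.17 and 0.25 at 8 h, 0.25 and 0.21 at 12 h, and 0.61 and 0.46 at 24 h. The fit, with date as a term, draws on the same differences within dates, so they are no separate support for it. The F test of a difference between times gave p 0.528, so no time stood apart by this test.

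The call on Kcnj3 depends on how the data are handled. It was lost with median centring (0.26, adjusted p 0.232), without a term for date (0.20, adjusted p 0.0966) and with date as a random block (0.22, adjusted p 0.0561). Counting those just named, it passed in 10 of the 13 settings other than the main one. It also passed in 47 of 47 fits that leave out 1 animal, with an adjusted p between 0.0013 and 0.0139. Marker genes of several cell types differed in the same mean effect. Inha rose among 11 Sertoli probes (0.30, adjusted p 0.0182) and Myl9 among 6 myoid probes (0.35, adjusted p 0.000543), 1 probe each. Among 3 blood probes 1 rose, Alas2 (0.30, adjusted p 0.00194). Among 8 spermatogonia probes 1 of Etv5 rose (0.30, adjusted p 0.0175), while the other probes of that gene stood at -0.25 and -0.11. The median mean effect was 0.13 over the Sertoli list, 0.10 over the myoid list, 0.005 over the blood list and -0.02 over the spermatogonia list. Of 8 spermatocyte probes 4 fell (Sycp1, Sycp2, Sycp3 and Mlh3), and the median M of the list ran from 0.23 to 0.91 on saline arrays and from 0.06 to 0.74 on treated ones. Of 12 elongating spermatid probes 0 passed in the mean effect, with list medians from -0.00 to 0.61 on saline and -0.07 to 0.73 on treated arrays. On the round spermatid, Leydig, macrophage and endothelial lists 0 probes passed in the mean effect. The part of these cell types in the Kcnj3 difference was not tested.

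**Figure D3:**
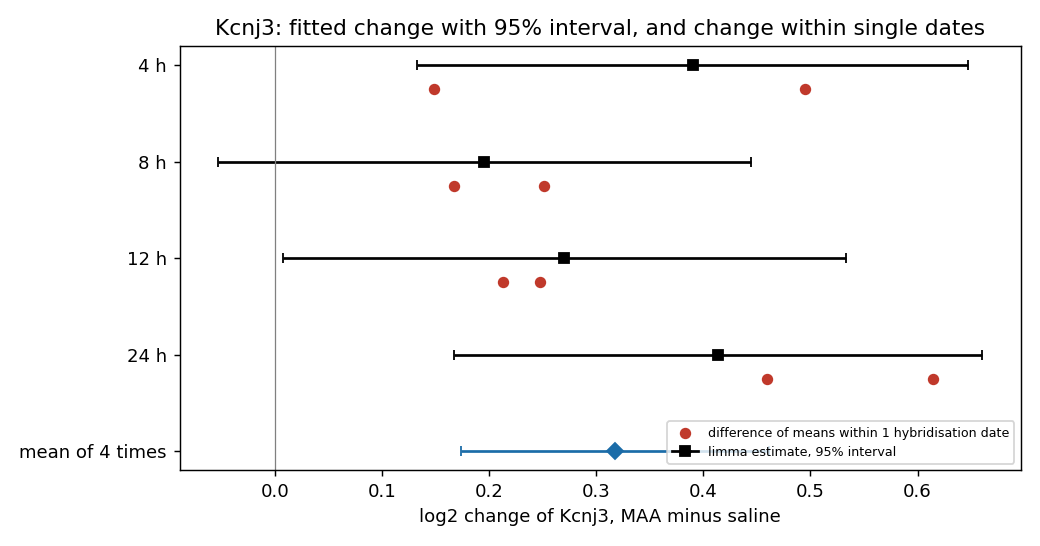
Log2 change of Kcnj3 (horizontal axis, MAA minus saline) at each time and in their mean (vertical axis); squares and the diamond are limma estimates with 95% intervals, and dots are differences of group means within 1 hybridisation date. All 8 dots lie to the right of 0, from 0.15 to 0.61, and the interval of the mean runs from 0.17 to 0.46.

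The channel that Kcnj3 takes part in is a tetramer with Kcnj5, Kcnj6 or Kcnj9. These partners were named after their values were seen. Kcnj6 was above background on 47 of 47 arrays, with a mean effect of 0.09 ± 0.058 (SE, adjusted p 0.514) and a 95% interval from -0.03 to 0.20. Kcnj9 stood at -0.07 ± 0.13 (adjusted p 0.868) and Kcnj5, above background on 5 of 47 arrays, at -0.21 ± 0.11 (adjusted p 0.395). Of the 14 inward rectifier probes 13 did not pass, and their mean effects reached from -0.21 for Kcnj5 up to Kcnj3.

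Kcnk12 had the second smallest p in the mean effect and did not pass. At 12 h the saline animals lay at 0.63, 0.98 and 1.36 (lowest, median and highest M) and the treated ones at 1.15, 1.25 and 1.55. At 24 h they lay at 0.58, 0.90 and 1.07 in saline and at 0.72, 1.17 and 1.38 in MAA. All treated animals of 12 h lay above 5 of the 6 saline animals of that time. The fitted changes were 0.15, 0.06, 0.36 and 0.34 at 4, 8, 12 and 24 h, with adjusted p of 0.172 at 12 h and 0.162 at 24 h. The mean effect was 0.23 ± 0.075 (SE), 1.17-fold, with an adjusted p of 0.083, and the difference was above 0 on 7 of 8 dates. With the testis channel alone it passed at 12 h (0.43, adjusted p 0.0307) and in the mean effect (adjusted p 0.0187).

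**Figure D4:**
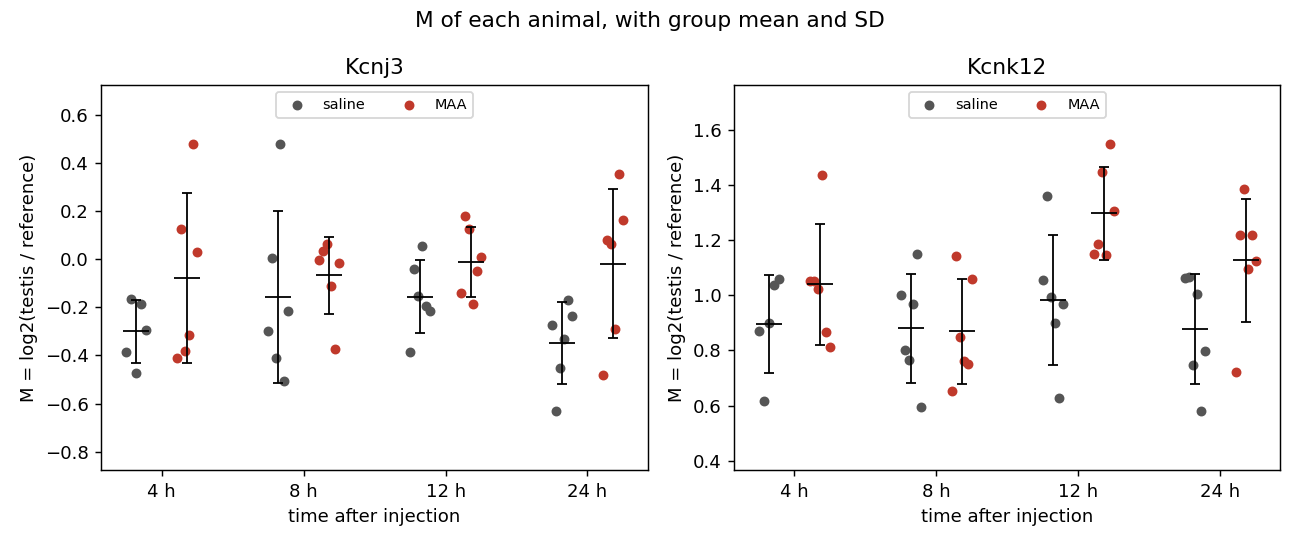
M of each animal (vertical axis, log2 of testis over reference) for Kcnj3 (left) and Kcnk12 (right) by time after injection (horizontal axis), saline in grey and MAA in red; black bars are group means and SD. Treated and saline animals overlap in every pair of groups, and the treated means stand above the saline means for Kcnj3 at each time and for Kcnk12 at 4, 12 and 24 h.

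Kcna5 and Kcne1, the other members with the highest ratio of testis over reference, had changes of the same sign at these times without passing. For Kcna5 the saline animals of 24 h lay at 0.29, 0.61 and 0.79 and the treated ones at 0.51, 0.91 and 1.51, a change of 0.36 ± 0.12 (SE, adjusted p 0.121). The fitted change of Kcna5 was -0.05, 0.14 and 0.23 at 4, 8 and 12 h, and Kcne1 stood at 0.18 and 0.25 at 12 and 24 h (adjusted p 0.537 and 0.300). The median change of the 12 elongating spermatid probes was 0.31 and 0.30 at 12 and 24 h. Other lists moved too: myoid by 0.30 and 0.08, Sertoli by 0.12 and 0.17, and round spermatid by 0.18 and -0.04. Leydig stood at -0.01 and 0.24, blood at -0.32 and 0.36, and spermatocyte at -0.20 and -0.19. The part of any cell type in the values of Kcna5 and Kcne1 was not tested.

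Among voltage-gated potassium channels, Kcng1 had the largest difference at 12 h. It encodes a pore subunit that forms no channel alone and modifies Kcnb channels. The 6 saline animals of 12 h lay between 0.05 and 0.54 with a median of 0.35, and the 6 treated ones between -0.86 and 0.18 with a median of -0.18. The groups overlapped, but all 6 saline arrays and 0 of 6 treated ones were above background. Kcng1 met the background rule for named probes through its saline group alone, so this split is no separate support. With treated arrays set to the background level, their mean was 1.27-fold lower, a bound on means that carries no sampling error. The fitted change was -0.55 ± 0.19 (SE, adjusted p 0.126), and it passed without a date term (-0.59, adjusted p 0.0399) and with date as a random block (-0.58, adjusted p 0.0418). On the 2 shared dates of 12 h the differences were -0.39 and -0.62. At the other times Kcng1 stood at 0.26, -0.34 and 0.13. Kcnh1, a channel of brain and dividing cells, stood at -0.25 at 12 h and -0.35 ± 0.18 (SE) at 24 h (adjusted p 0.372). In the latter group 1 treated animal, at 0.05, lay above all saline animals.

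Potassium channel auxiliary subunits gave larger single values at 8 and 24 h. Kcnmb4, a beta subunit of the large-conductance channel, lay between -0.55 and 0.30 in saline and between 0.31 and 0.87 in treated animals of 8 h. These groups did not overlap, but the probe was picked for its large rise at this time. How many of all probes have groups that separate in this way was not counted. Above background were 6 of 6 treated and 2 of 6 saline arrays, so Kcnmb4 met the background rule for named probes through its treated group alone. The change was 0.51 ± 0.19 (SE) with an adjusted p of 0.548, and at the other times it stood at -0.16, -0.10 and 0.09. Kcnip3, a calcium-binding protein that binds potassium channels and DNA, was at 0.36 ± 0.17 (SE) at 24 h (adjusted p 0.316). Kcnab3, an oxidoreductase-like beta subunit, stood at 0.45 at 12 h and -0.42 at 24 h. It was above background on 11 of 47 arrays, and on 0 of 6 treated arrays of 24 h.

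Among calcium channels, Cacna1d, a pore subunit that opens at low voltage, had the lowest change at 4 h. Saline animals lay at -0.25, 0.26 and 0.65 and treated ones at -0.85, -0.17 and 0.24 (lowest, median and highest M), and the groups overlapped. The change was -0.64 ± 0.24 (SE, adjusted p 0.531), and its mean effect, with the smallest p after Kcnj3 and Kcnk12, was -0.33 ± 0.13 (SE, adjusted p 0.186). Cacna1d was above background on 15 of 47 arrays. At 4 h it met the background rule for named probes through its saline group alone. Only treated animals 4 and 7, both with bright arrays, were above background then, so the treated level is mostly background. Cacna1i, another low-voltage pore, stood at -0.36 at 8 h and 0.33 at 12 h. Of the auxiliary subunits, Cacng2 was at 0.39 ± 0.19 (SE) at 8 h (adjusted p 0.684) and Cacng6 at 0.34 ± 0.23 (SE) at 4 h (adjusted p 0.796). Cacng6 was above background on 5 of 47 arrays, of which 3 were treated and 1 was saline at 4 h. The fitted log2 difference at 8 h, 0.53 ± 0.22 (SE, adjusted p 0.640), was the highest of all members then, but 0 of 6 treated and 0 of 6 saline arrays were above background, and it gives no measured fold.

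Sodium channels showed no called change at any time either. Scn4a, the skeletal muscle pore, was at -0.38 ± 0.20 (SE) at 8 h (adjusted p 0.721), Scn9a, known from pain neurons, at -0.31 ± 0.14 at 24 h (adjusted p 0.282), and Scn3a at -0.29 ± 0.18 at 12 h (adjusted p 0.463). The Scn3b probe that is low against the reference stood at -0.33 at 8 h, and the other Scn3b probe at -0.13. Scn3a was above background on 3 of 6 saline and 0 of 6 treated arrays of 12 h, and its treated level is only bounded by background.

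In the Clcn family, Clcn3 gave the highest change of all members at 24 h. Saline animals lay at -0.57, -0.34 and 0.29 and treated ones at -0.16, 0.35 and 0.51 (lowest, median and highest M), and the groups overlapped. The change was 0.43 ± 0.18 (SE, adjusted p 0.233), after 0.34 ± 0.19 at 12 h (adjusted p 0.425), 0.05 at 8 h and -0.11 at 4 h. Clcn1, the skeletal muscle channel, stood at 0.39 ± 0.21 at 8 h (adjusted p 0.739), and Clcn7 between -0.06 and 0.02 at the 4 times.

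TRP channels are cation channels of sensory and store-operated pathways, and Trpc1 gave the highest change of all members at 4 h. Saline animals lay at -0.74, -0.39 and 0.16 and treated ones at -0.11, 0.11 and 0.72, with 1 of 5 and 5 of 6 arrays above background. Trpc1 met the background rule for named probes at 4 h through its treated group alone, so this split is no separate support. The arrays above background include the bright ones of treated animals 4 and 7 and saline animal 2. The groups overlapped, and the change was 0.59 ± 0.20 (SE, adjusted p 0.473). The later changes of Trpc1 were 0.07, -0.23 and -0.30. Trpc6, above background on 7 of 47 arrays, stood at -0.48 ± 0.25 (SE) at 4 h (adjusted p 0.690). The bright Trpv2 had a mean effect of 0.14 (adjusted p 0.419), the highest of the class.

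Whether the effect of MAA differed between times was tested with limma's F test. Of the 123 channel probes 0 passed, where 0.127% of all probes did, and 4 had an unadjusted p under 0.05 (3.25%, against 11.1%). The smallest values were those of Trpc1 (adjusted p 0.268), Kcng1 (adjusted p 0.272) and Kcnab3 (adjusted p 0.347).

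Other genes of ion transport were read from the same fit for context. Of 88 listed genes 49 have probes, 56 in all, with median changes of 0.02, -0.01, 0.11 and 0.08 at 4, 8, 12 and 24 h. At 12 h 1 probe of 56 rose and 0 fell (1.79%, against 2.54% of all probes): Atp2b1, a calcium pump of the plasma membrane, changed by 0.65 (adjusted p 0.0459). At 24 h 1 rose and 1 fell (3.57%, against 2.99%), with Atp1b3, a sodium pump subunit, at 0.40 (adjusted p 0.0282). The one that fell, Pkd2 (-0.58, adjusted p 0.0465), a TRP-like cation channel, was above background on 8 of 47 arrays, and its other probe stood at 0.11. In the mean effect 1 rose (1.79%, against 4.02%), the sodium pump subunit Atp1b2 (0.22, adjusted p 0.0473), whose other probe stood at -0.01. Catsper2, a pore subunit of the sperm calcium channel, had the highest ratio of testis over reference on this list, at 1.41, and a mean effect of 0.04 (adjusted p 0.850).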

How the data were processed

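The 47 array files, each from 1 animal and 1 two-colour Agilent array, hold raw intensities of both channels, processed intensities, a log2 ratio and flags per spot, as deposited. The raw intensities are scanner values up to 65535 and the log2 ratio is that of Cy3 over Cy5, normalized by the authors, per the file headers and the values. The method of that normalization is not given in the sources used here. Of 22573 spots per file, 2073 without processed values were left out, and none is a channel probe. The deposited series table was not used: 39 of its 47 columns equal the ratio of another array than the one named (tolerance 1e-06).

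Raw intensities were normalized by loess within arrays to M = log2(testis/reference), which correlated with the deposited ratio at 0.984 or more. The background flag, a limit on the Cy3 channel of each of the 47 arrays, says whether a probe is above background. Symbols came from the platform annotation, replaced by the RefSeq symbol of the same gene ID where there was one, and gave 12736 probes 1 symbol. The fit used R 4.3.3 and limma 3.58.1, by lmFit and eBayes, with 8 groups and 12 hybridisation dates as terms, 28 residual and 6.75 prior degrees of freedom, and two-sided p adjusted by Benjamini-Hochberg over 20500 probes. The saline fit used 23 arrays and no date term. A bound sets the brighter group against the dim group's background level, per channel after normalization between arrays. It compares means and carries no sampling error. The scripts were tested on simulated data. Alternatives were other normalizations, filters, date terms and single arrays left out; leaving out spots with flag 3, or the 3 arrays with over 80% of probes above background, was chosen after the data were seen.

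Named genes are every called member, the 3 smallest p of the mean effect and the F test, and channels listed for testis or sperm. They include the 3 largest rises and falls per time among probes above background on at least 50% of a group's arrays. A probe could meet that rule through either group alone, so a split in detection is no separate support. The 8 highest and lowest ratios to reference are from probes above background on at least 50% of the saline arrays. For the lowest, an image flag could stand in for that rule. The members and lists were chosen with earlier results of these data known. One gene of these families is not reported here. Animals are separate, so the spread is between animals.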

Additional observations from a re-analysis of the deposited data

Results flagged for a closer look

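Single animals far from the rest of their group were looked for in 34 named probes and 8 groups, 272 sets in all, and 11 were found. Chance flags about 1 in 20 groups, so this number is not above what chance gives. Among treated animals of 8 h, animal 20 was low for Cacna1d (M -1.03) and for Clcn3 (-0.62), animal 19 low for Kcne1 (0.36), animal 16 high for Clcn7 (0.78) and animal 15 low for Scn8a (-0.00966). Among treated animals of 24 h, animal 40 was high for Kcne1 (1.14) and animal 47 high for Kcnh1 (0.0545). Treated animal 8 of 4 h was low for Cacna1i (-0.76), as was saline animal 34 of 12 h (-0.63). Saline animal 22 of 8 h was low for Kcnmb4 (-0.55), and saline animal 10 of 4 h low for Kcnj12 (-1.76).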

How the results depend on the processing

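No paired analysis was possible because animal numbers do not recur between groups. The count of channel probes in the mean effect, 1 as reported, was 0 with median centring, without a date term and with date as a random block (correlation within a date 0.0686). It was 2, Kcnj3 and Kcnk12, with the testis channel alone and over probes above background on at least 24 of 47 arrays. Without single animals it was 1 to 2, the latter without saline animals 26 of 12 h or 21 of 8 h. At 24 h the count of 0 became 1, Kcnj3, with the testis channel alone (adjusted p 0.0299), with that filter (0.0224) and without the 3 bright arrays (0.0381), and was 0 to 1 without single animals, 1 in 11 of 47 fits. At 12 h the count of 0 became 1 with the testis channel alone (Kcnk12) and 1 without a date term or with the random block (Kcng1). Background correction by normexp with an offset of 50 gave 1 probe higher than the reference (Kcnk12) and 14 lower (11.4%, against 12.4% of all probes), against 0 and 8; without single animals 8 to 9 were lower, 9 in 12 of 23 fits, with Scn2a added. No named value changed its call with reversed sign, and the causes were not tested. The F test was not run with flag 3 spots left out. The number of arrays and the low signal of many channel probes limit the precision.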
